A study of Drosophila melanogaster with 32 samples.

Results

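The introns of CG10576, a protein-coding gene on chromosome arm 3L of Drosophila melanogaster, hold 6 annotated small RNA genes, and short reads from all 6 were counted in the RNA-induced silencing complexes (RISC) of adult flies. They are snoR684 (FBtr0091798), sncRNA:CR43603 (FBtr0309787), snoRNA:Psi18S-1397 (FBtr0113606) and the related snoRNA:Psi28S-1837a (FBtr0091629), snoRNA:Psi28S-1837b (FBtr0113608) and snoRNA:Psi28S-1837c (FBtr0113607). The name snoR684 is the RefSeq synonym of this snoRNA. The 6 are the rows of this host gene in a table of 2303 transcripts, and the host was chosen on read counts in dFOXO-null and wDah flies in these same data. The difference between genotypes is therefore described here and not tested. All 6 passed the filter of 5 reads on average over the 32 libraries, a filter that 1006 of the 2303 transcripts did not pass.

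The libraries came from whole mated flies, 40 flies to a lysate. The groups were dFOXO-null flies, which carry the deletion foxo{delta}94 in the wDah background, and wDah flies, an outbred white-eyed stock without that deletion. Each genotype was sampled as females and males, at 35 d and at 5 d, and Ago2 and Ago1 were precipitated from portions of lysate. The sources used here do not state outright that same-numbered Ago2 and Ago1 libraries share a lysate. Every one of these 16 groups had 2 replicates, numbered as experiment 1 and experiment 2 in the labels, and within a genotype, flies of 35 d and of 5 d with a common number were siblings. The dFOXO-null line was backcrossed to wDah, and each precipitate holds the RNA of all tissues of the fly. In such whole-fly samples, fewer cells of a type and less RNA per cell cannot be told apart. Total RNA was not analysed here, so a level below is the share of an RNA among the reads of a precipitate and not its abundance in the fly.

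Small nucleolar RNAs (snoRNAs) guide the chemical modification of ribosomal RNA. In animals many are cut out of the introns of host genes after splicing. H/ACA snoRNAs, whose names carry Psi in Drosophila, direct the conversion of uridine to pseudouridine at a position of 18S or 28S rRNA, and end in an ACA box near the 3′ end. Box C/D snoRNAs, whose names carry Me, direct 2′-O-methylation. Ago1 is the Argonaute that mainly carries microRNAs and Ago2 the one that mainly carries small interfering RNAs. Fragments of snoRNAs can also be found on Argonaute proteins. The reads counted here were at most 25 nt long, so they are fragments of these RNAs and not the full-length molecules.

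The 6 genes lie on the minus strand of 3L, as CG10576 does (dm6, chr3L:5761963-5765702), and none overlaps any of the 8 exons of the host. sncRNA:CR43603, a 186-nt non-coding RNA without an assigned function, is in intron 2 (chr3L:5764861-5765046). Intron 4 holds snoRNA:Psi28S-1837a (chr3L:5764258-5764394), snoRNA:Psi28S-1837b (chr3L:5764113-5764249) and snoRNA:Psi28S-1837c (chr3L:5763946-5764084) in a row. snoR684, the shortest at 78 nt, is in intron 5 (chr3L:5763345-5763422), and snoRNA:Psi18S-1397 is in intron 6 (chr3L:5762860-5763000). No row of the host gene itself was analysed here. Its plus-strand neighbour Txl had 24 reads over the female libraries and 13 over the male libraries, too few to test.

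**Figure D1:**
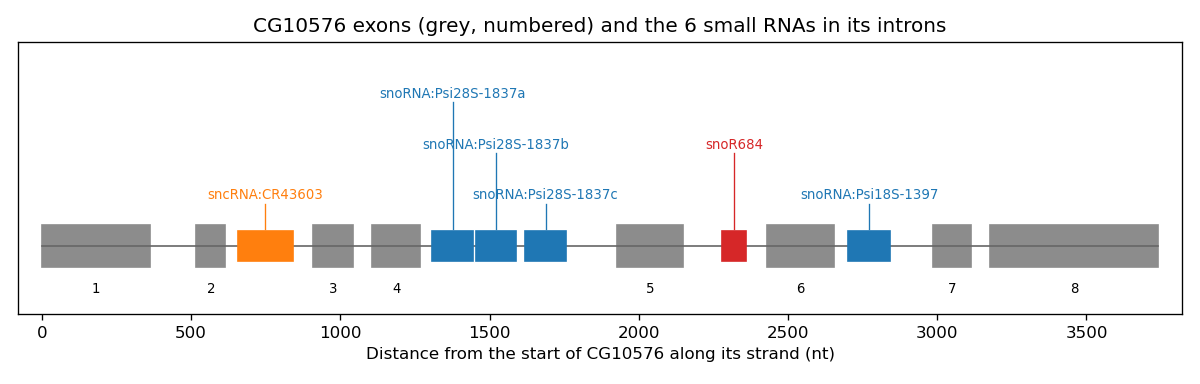
Map of CG10576 along its own strand, with the distance from its start in nt on the horizontal axis, its 8 exons as numbered grey boxes, and the 6 small RNAs as coloured boxes to scale. sncRNA:CR43603 lies in intron 2, the 3 Psi28S-1837 RNAs in intron 4, snoR684 in intron 5 and snoRNA:Psi18S-1397 in intron 6.

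The sequences of snoR684 and sncRNA:CR43603 are shown because these are the members whose levels differed most between the genotypes, and because they share a stretch near the 3′ end. The sequences are those of the dm6 reference genome at the coordinates above, 5′ to 3′ on the minus strand, and capitals mark the shared stretch.
snoR684: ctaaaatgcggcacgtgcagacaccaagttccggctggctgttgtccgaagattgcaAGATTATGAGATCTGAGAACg
sncRNA:CR43603: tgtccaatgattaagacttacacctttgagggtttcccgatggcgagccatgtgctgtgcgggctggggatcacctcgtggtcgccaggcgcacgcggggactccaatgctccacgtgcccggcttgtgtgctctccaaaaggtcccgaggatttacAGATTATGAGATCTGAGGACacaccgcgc

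The stretch is 20 nt long and differs by 1 base, A18G, where the base of snoR684 comes first and positions are counted from the 5′ end of the stretch. It ends 1 base from the 3′ end of snoR684 and 9 bases from that of sncRNA:CR43603. With the 1 mismatch that the study's alignment allowed, reads of up to 20 nt from it can count at both genes. None of the 58 windows of 21 nt in snoR684 occurred elsewhere in the genome within 1 mismatch.

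Both RNAs lack the H/ACA ending. An ACA followed by exactly 3 bases at the 3′ end was found in the other 4 members, in 77 of 81 other snoRNA:Psi rows of the table (95.1%), and in 0 of 52 snoRNA:Me rows. The H/ACA members are printed as well, and among them snoRNA:Psi28S-1837b and snoRNA:Psi28S-1837c can share reads. Capitals in snoRNA:Psi28S-1837c and snoRNA:Psi28S-1837b mark the runs of 12 or more bases that are identical in both, and in snoRNA:Psi28S-1837a those identical in either of the other two. In snoRNA:Psi18S-1397 they mark the ACA box.
snoRNA:Psi28S-1837c: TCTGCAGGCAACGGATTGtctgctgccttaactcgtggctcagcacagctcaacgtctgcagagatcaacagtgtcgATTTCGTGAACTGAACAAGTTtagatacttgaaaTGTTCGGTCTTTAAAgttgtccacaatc
snoRNA:Psi28S-1837b: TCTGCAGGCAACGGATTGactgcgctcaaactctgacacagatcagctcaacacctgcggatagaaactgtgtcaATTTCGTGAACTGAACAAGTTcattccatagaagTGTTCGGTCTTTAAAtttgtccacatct
snoRNA:Psi28S-1837a: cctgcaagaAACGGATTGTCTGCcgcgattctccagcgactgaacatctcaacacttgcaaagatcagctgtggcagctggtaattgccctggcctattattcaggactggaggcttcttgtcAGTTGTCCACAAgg
snoRNA:Psi18S-1397: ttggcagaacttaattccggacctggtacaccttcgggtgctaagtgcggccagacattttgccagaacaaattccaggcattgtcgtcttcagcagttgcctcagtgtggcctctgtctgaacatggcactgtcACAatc

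snoRNA:Psi28S-1837b and snoRNA:Psi28S-1837c were 80.1% identical over their length. Of the 117 windows of 21 nt in snoRNA:Psi28S-1837b, 17 matched snoRNA:Psi28S-1837c within 1 mismatch, so their levels are not wholly separate measurements. snoRNA:Psi28S-1837a shared no 21-nt window with them.

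The 16 Ago2 libraries held 497380 to 3894561 mapped reads and the 16 Ago1 libraries 705569 to 2323765. Levels below are CPM, the reads of an RNA per 1000000 reads mapped in its library, and intervals and limits cover counting error only. Sex labels were checked on 61 rows of the Y chromosome, which together had 2.03 to 77.1 CPM in female libraries and 644 to 6423 CPM in male libraries. lncRNA:roX1, the RNA that coats the male X chromosome, had few reads and did not follow the labels, with 45 reads in all female and 5 in all male libraries. The foxo gene was not analysed here, so the deletion itself was not checked. The 6 RNAs together were 0.0249% to 0.102% of mapped reads in Ago2 and 0.0235% to 0.0945% in Ago1.

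Per 100 nt of length, snoR684 was the lowest of the 6 in dFOXO-null flies and the highest by median in wDah flies. Its median in wDah flies was 143 CPM per 100 nt in Ago2 and 111 in Ago1. sncRNA:CR43603 came first in dFOXO-null flies, with medians of 208 CPM per 100 nt in Ago2 and 184 in Ago1. In wDah flies it stood below snoR684 and snoRNA:Psi18S-1397, with 46.8 in Ago2 and 39.0 in Ago1. snoRNA:Psi18S-1397 stood second by median in both genotypes, and the 3 Psi28S-1837 RNAs had medians of 9.04 to 31.0 CPM per 100 nt. The ranges of the libraries overlapped between neighbours in these orders, except that snoR684 in dFOXO-null flies, at 0 to 0.329 CPM per 100 nt, lay below every library of the other 5.

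**Figure D2:**
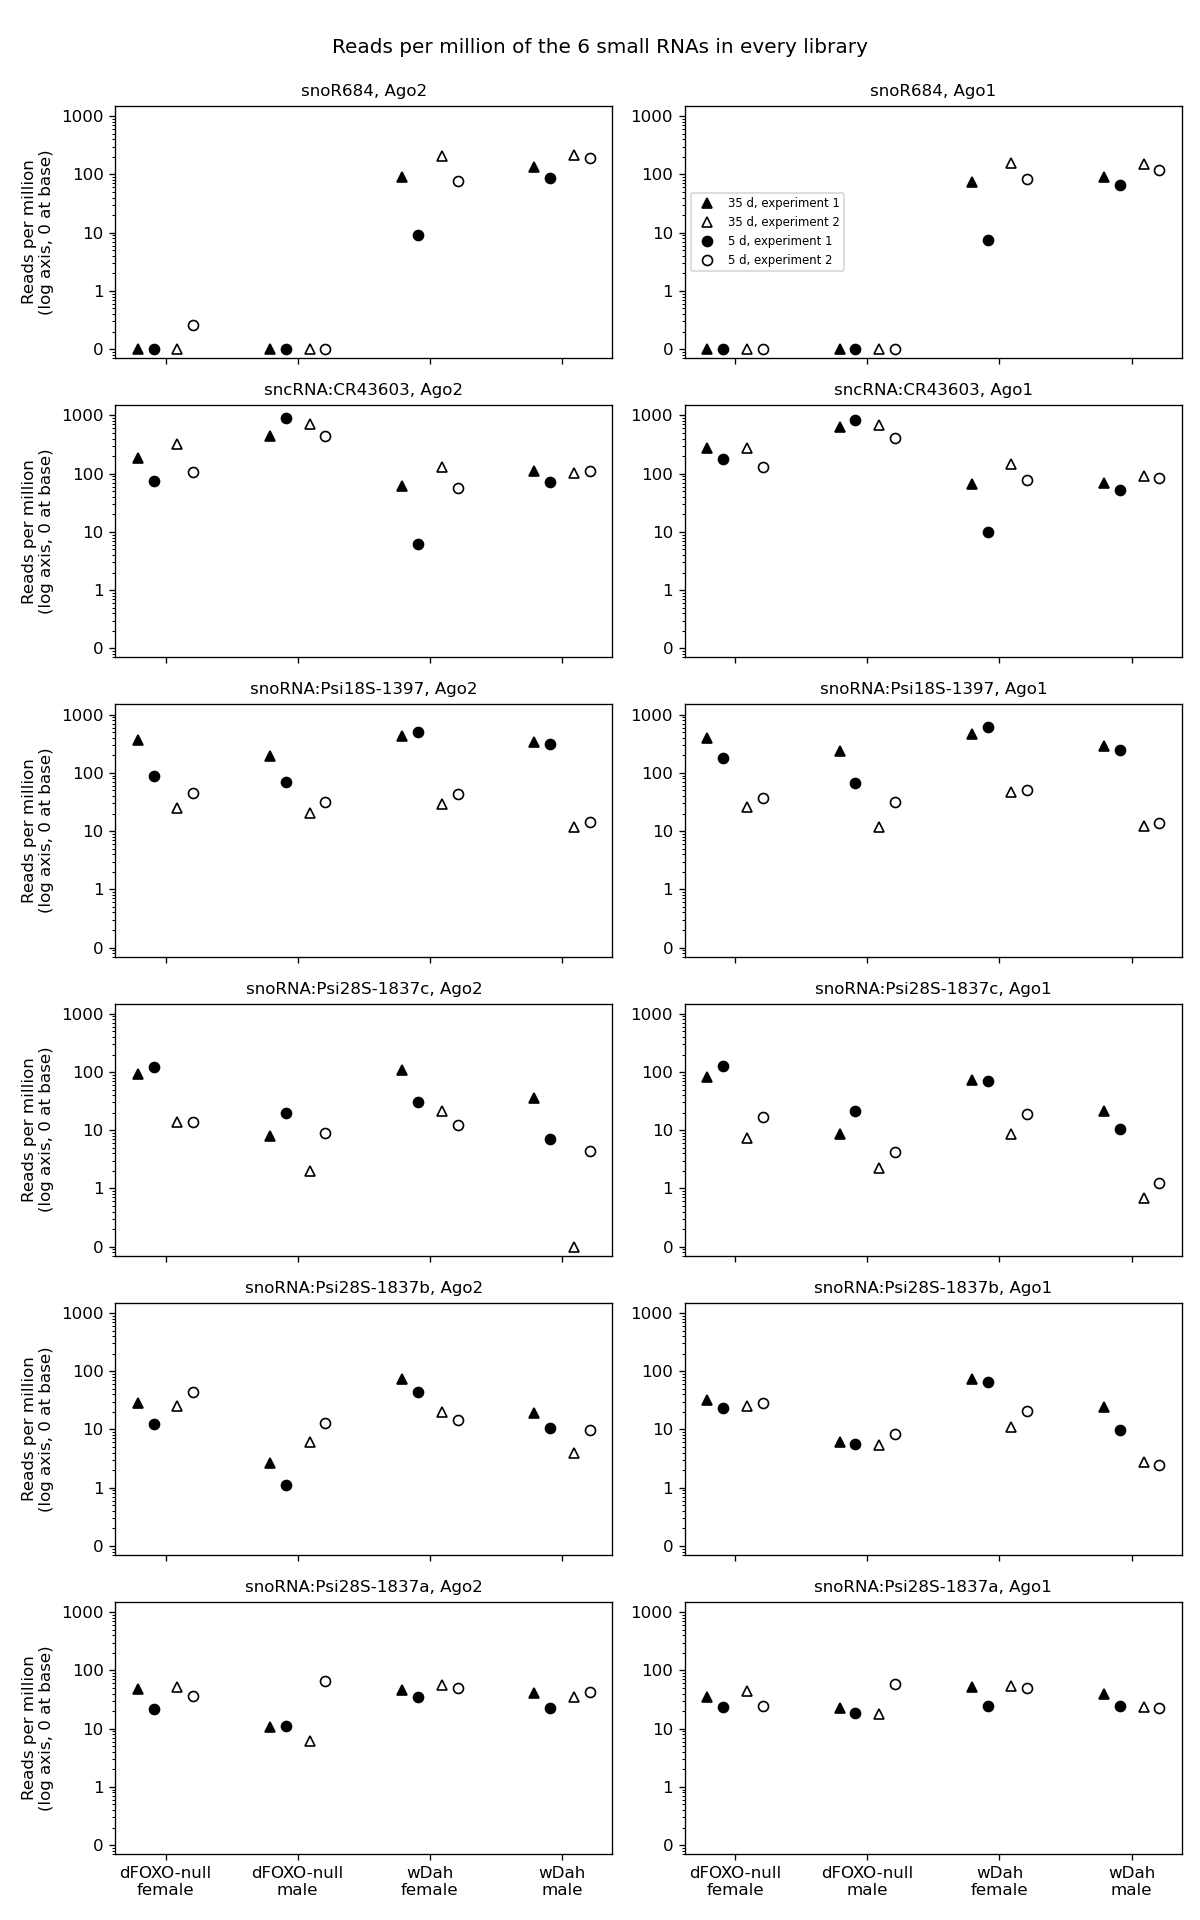
CPM of each of the 6 small RNAs (rows of panels) in Ago2 (left) and Ago1 (right), on a log axis with 0 drawn at the base, for dFOXO-null females and males and wDah females and males. Each point is 1 library, triangles are 35 d and circles 5 d, and filled points are experiment 1 and open points experiment 2. snoR684 is at 0 in all dFOXO-null libraries except 1, and the filled points of snoRNA:Psi18S-1397 all lie above its open points.

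snoR684 reads were absent or nearly absent from dFOXO-null RISC and present in every wDah library. In Ago2, dFOXO-null flies had 1 read in 11497311, from a female library of 5 d and experiment 2, and 0 reads in the other 7 libraries. wDah flies had 1154 reads in 9500283. In Ago1, dFOXO-null flies had 0 reads in 13326256, which allows a level of up to 0.225 CPM, and wDah flies had 1003 reads in 10918096.

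Every wDah library had several reads of it. In Ago2, wDah females of 35 d had 89.7 and 206 CPM, and those of 5 d had 9.29 and 78.7 CPM, for experiments 1 and 2. wDah males in Ago2 had 134 and 219 CPM at 35 d and 88.5 and 193 CPM at 5 d. In Ago1, wDah females had 73.8 and 160 CPM at 35 d and 7.43 and 82.9 CPM at 5 d. wDah males in Ago1 had 90.6 and 149 CPM at 35 d and 67.2 and 121 CPM at 5 d. The 5 d wDah females of experiment 1 were the lowest in both precipitates, and no dFOXO-null library reached even that level. In Ago1 the pooled level was at least 408-fold lower in dFOXO-null than in wDah flies, with 3 reads over the group as the floor. In Ago2 the ratio was 1397-fold, with an exact 95% counting interval of 250.2 to 55209. Non-overlap in this direction occurred for 0.0825% of the 1212 rows tested in Ago1 and 0.805% of the 1366 in Ago2, and genotype was the contrast that drew attention to the gene.

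sncRNA:CR43603 ran in the opposite direction. In Ago2, its level was 404 ± 297 CPM in dFOXO-null flies and 81.6 ± 40.3 CPM in wDah flies (SD, n = 8 each). In Ago1 it was 424 ± 257 CPM in dFOXO-null flies and 74.2 ± 38.2 CPM in wDah flies (SD, n = 8 each). The dFOXO-null library was the higher one in 8 of 8 matched pairs of both precipitates. The fitted log2 difference was 2.06 ± 0.40 (SE) in Ago2 and 2.35 ± 0.43 (SE) in Ago1. Within experiments 1 and 2 the difference of mean log2 CPM was 2.63 and 1.75 in Ago2, and 3.29 and 1.69 in Ago1. The size of the fitted difference depended on the scaling. In Ago2 it was 1.83 under TMM factors and 2.83 under snoRNA reads as library size, and in Ago1 1.69 and 2.77. The median of all rows in this contrast was -0.01 in Ago2 and 0.54 in Ago1, and with TMM factors it was -0.19 in Ago2 and -0.07 in Ago1.

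The gap was wide in males. In Ago2, dFOXO-null males had 451 and 726 CPM at 35 d and 914 and 446 CPM at 5 d, for experiments 1 and 2, against 72.2 to 112 CPM in wDah males. In Ago1, dFOXO-null males had 622 and 677 CPM at 35 d and 832 and 407 CPM at 5 d, against 51.8 to 91.4 CPM in wDah males. The males of the 2 genotypes did not overlap, as was the case in this direction for 1.68% of rows in Ago2 and 4.54% in Ago1.

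In females the genotypes did overlap. dFOXO-null females in Ago2 had 189 and 327 CPM at 35 d and 73.8 and 108 CPM at 5 d, against 6.20 to 131 CPM in wDah females. In Ago1, dFOXO-null females had 278 and 273 CPM at 35 d and 177 and 128 CPM at 5 d, against 9.90 to 145 CPM in wDah females. The mean level of dFOXO-null over wDah was 6.39-fold in males and 2.72-fold in females in Ago2, and 8.58-fold in males and 2.87-fold in females in Ago1.

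Within wDah flies the 2 RNAs rose and fell together. The ratio of snoR684 to sncRNA:CR43603 reads was 1.21 to 2.15 over the 8 Ago2 libraries and 0.75 to 1.63 over the 8 Ago1 libraries. Across the 16 wDah libraries, Pearson's r of their log2 CPM was 0.97 and Spearman's rho 0.91. Without the 2 libraries of the 5 d females of experiment 1, the ones farthest from the median of sncRNA:CR43603, r was 0.88 and rho 0.87 (n = 14). Where same-numbered Ago2 and Ago1 libraries share a lysate, these are not 16 independent samples. Among 1296 rows, sncRNA:CR43603 was the one most like snoR684 in wDah flies, ahead of snoRNA:MeU6-C68 (r = 0.94) and snoRNA:229 (r = 0.92). The part that reads from the shared stretch have in this was not tested.

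**Figure D3:**
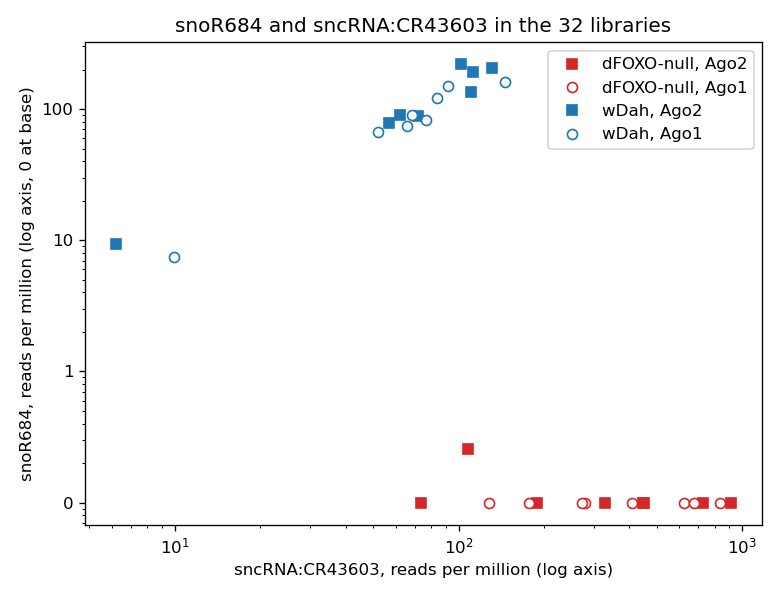
CPM of snoR684 (vertical, log axis with 0 at the base) against sncRNA:CR43603 (horizontal, log axis) in the 32 libraries, red for dFOXO-null and blue for wDah, filled squares for Ago2 and open circles for Ago1. The wDah libraries follow a line up to 131 to 145 CPM of sncRNA:CR43603, and the dFOXO-null libraries lie at or near 0 of snoR684 over 73.8 to 914 CPM of sncRNA:CR43603.

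The other 4 members, all H/ACA guides, overlapped between the genotypes. In Ago2, the fitted log2 difference of dFOXO-null against wDah was -1.17 ± 0.83 for snoRNA:Psi18S-1397, -0.63 ± 0.38 for snoRNA:Psi28S-1837a, -0.69 ± 0.52 for snoRNA:Psi28S-1837b and 0.20 ± 0.68 for snoRNA:Psi28S-1837c (SE). In Ago1 these differences were -0.90 ± 0.89, -0.24 ± 0.38, -0.57 ± 0.55 and 0.18 ± 0.80 in the same order of RNAs. In matched pairs, the dFOXO-null library was the lower one in 5 of 8 pairs in Ago2 and 7 of 8 in Ago1 for snoRNA:Psi18S-1397, and in 6 of 8 in Ago2 and 7 of 8 in Ago1 for snoRNA:Psi28S-1837a. It was lower in 4 of 8 pairs for snoRNA:Psi28S-1837b and higher in 5 of 8 for snoRNA:Psi28S-1837c, in each precipitate. Over all rows, 1.46% were called between the genotypes in Ago2 and 0.248% in Ago1.

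For snoRNA:Psi28S-1837b the sign depended on the experiment. In Ago2 its log2 difference of dFOXO-null and wDah flies was -1.91 in experiment 1 and 0.68 in experiment 2, and in Ago1 it was -1.25 and 0.90. In each precipitate all 4 matched pairs of experiment 1 were lower in dFOXO-null flies and all 4 of experiment 2 were higher. snoRNA:Psi18S-1397 in Ago2 also had opposite signs, -1.41 in experiment 1 and 0.40 in experiment 2. Sibling group and replicate share the experiment number here and cannot be told apart. The labels do not say whether the same number in both genotypes stands for a common batch.

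The comparison of the sexes asked whether these fragments differ between female and male RISC. The guides snoRNA:Psi28S-1837b and snoRNA:Psi28S-1837c, named for a pseudouridine of 28S rRNA, were higher in females in both precipitates, and sncRNA:CR43603 was lower in females in Ago2. In Ago2, where 63.4% of all rows were called, 2 of 6 members rose and 1 fell by edgeR's quasi-likelihood test with Benjamini-Hochberg adjustment, beside 24.4% of all 1366 rows called higher and 39.0% called lower. That split of all rows turned with the scaling, and with TMM factors 383 rows were higher and 245 lower. In Ago1, where 39.9% were called, 2 of 6 members rose and none fell, beside 22.9% of 1212 rows called higher and 16.9% lower. TMM factors gave 267 rows higher and 301 lower there. The members' share is thus close to that of the table as a whole.

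snoRNA:Psi28S-1837b had a lowest, median and highest level of 12.6, 26.9 and 73.1 CPM in female Ago2 libraries, against 1.11, 7.88 and 19.4 CPM in male ones. In Ago1 these were 10.8, 26.9 and 73.1 CPM in females, against 2.47, 5.87 and 24.1 CPM in males. The female library was higher in 8 of 8 matched pairs of each precipitate, although the ranges overlapped. The log2 fold change of female over male was 2.0 ± 0.52 in Ago2 (SE, edgeR adjusted p = 0.0042) and 2.15 ± 0.56 in Ago1 (adjusted p = 0.0065). Within experiments 1 and 2 the difference of mean log2 CPM was 2.27 and 1.51 in Ago2, and 2.02 and 1.92 in Ago1.

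snoRNA:Psi28S-1837c had 12.4, 26.1 and 122 CPM as the lowest, median and highest level in female Ago2 libraries, against 0, 7.49 and 35.9 CPM in male ones. In Ago1 it had 7.32, 44.9 and 129 CPM in females, against 0.687, 6.34 and 21.3 CPM in males. Again the female library was the higher in 8 of 8 pairs of each precipitate. The log2 fold change was 2.30 ± 0.69 in Ago2 (SE, edgeR adjusted p = 0.0097) and 2.62 ± 0.83 in Ago1 (adjusted p = 0.02). Within experiments 1 and 2 the difference of mean log2 CPM was 2.35 and 2.01 in Ago2, and 2.48 and 2.04 in Ago1. The call in Ago1 was lost without any of 6 single libraries, at adjusted p of 0.051 to 0.075. Those libraries were the wDah females of 5 d and of 35 d and the dFOXO-null females of 35 d, all of experiment 1, and the dFOXO-null males of 5 d and of 35 d and the wDah males of 5 d, all of experiment 2.

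Other H/ACA snoRNAs showed the same direction. Of 81 further snoRNA:Psi rows tested in Ago2, 51 were higher and 1 lower in females, and their median log2 fold change was 1.5, beside -0.49 over all rows. In Ago1, 55 of 80 were higher and 0 lower at adjusted p under 0.05, with a median of 1.85 beside 0.02 over all rows. Box C/D snoRNAs had 10 higher and 7 lower of 38 in Ago2, and 9 higher and 5 lower of 37 in Ago1. Of the other snoRNAs of 3L, 10 of 27 were higher and 2 lower in Ago2, and 8 of 26 were higher and 3 lower in Ago1. The H/ACA proteins Nop60B, NHP2 and CG7637 were not analysed here, and Gar1 had 142 reads over the female libraries and 5 over the male ones.

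The 2 other H/ACA members did not pass the test. snoRNA:Psi18S-1397, a guide of 18S rRNA, was the higher in females in 8 of 8 pairs of each precipitate, with log2 fold changes of 0.61 ± 0.83 in Ago2 (SE, edgeR adjusted p = 0.54) and 0.99 ± 0.89 in Ago1 (adjusted p = 0.43). With the experiment number as a block, the adjusted p was 0.042 in Ago2 and 0.027 in Ago1. snoRNA:Psi28S-1837a had 0.74 ± 0.38 in Ago2 (SE, edgeR adjusted p = 0.1) and 0.41 ± 0.38 in Ago1 (adjusted p = 0.44). Under TMM factors, median-of-ratios factors and DESeq2 its difference in Ago2 passed the threshold, at adjusted p of 0.029, 0.0135 and 0.0043. It also passed without the 5 d dFOXO-null male Ago2 library of experiment 2, with a log2 fold change of 1.18 and an adjusted p of 0.013.

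sncRNA:CR43603 averaged 119 ± 100 CPM in female and 367 ± 323 CPM in male Ago2 libraries (SD, n = 8 each), and was lower in females in 7 of 8 pairs. Its log2 fold change of female over male was -1.44 ± 0.39 in Ago2 (SE, edgeR adjusted p = 0.0053) and -0.88 ± 0.41 in Ago1 (adjusted p = 0.096). Within experiments 1 and 2 the difference of mean log2 CPM was -2.24 and -0.95 in Ago2, and -1.42 and -0.61 in Ago1. The block by experiment brought Ago1 past the threshold, at adjusted p = 0.014, as did leaving out the 5 d wDah female library of experiment 2 (adjusted p = 0.0080).

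The genotypes were then taken apart for this RNA, a step added after its values were seen. The values within each genotype are therefore a description, without p-values. In dFOXO-null flies, all 4 female libraries were below all 4 male libraries of the same precipitate, and 46.8% of rows were called between the sexes in Ago2 and 29.2% in Ago1. These shares are of rows called by edgeR, a different measure from the lack of overlap. The share of rows with all females below all males was not counted. How unusual the lack of overlap is was therefore not tested. The log2 fold change of female over male in dFOXO-null flies was -2.05 ± 0.56 in Ago2 and -1.63 ± 0.59 in Ago1 (SE). In wDah flies it was -0.82 ± 0.55 in Ago2 and -0.12 ± 0.58 in Ago1 (SE). The difference of the sex effect between dFOXO-null and wDah flies was -1.22 ± 0.77 in Ago2 (SE, edgeR adjusted p = 0.82) and -1.51 ± 0.82 in Ago1 (adjusted p = 0.95). A difference was thus not shown. With total mapped reads as library size and all libraries in the fit, edgeR called no row of either table in that contrast. DESeq2 called 1 in Ago2.

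snoR684 could be compared between the sexes in wDah flies alone, where 37.7% of rows were called in Ago2 and 27.7% in Ago1. It was lower in females in 4 of 4 pairs in Ago2 and in 3 of 4 in Ago1. The log2 fold change of female over male was -0.95 ± 0.64 in Ago2 (SE, edgeR adjusted p = 0.25) and -0.55 ± 0.75 in Ago1 (adjusted p = 0.70). In Ago2, the block by experiment gave an adjusted p of 0.045, and leaving out the 5 d wDah females of experiment 2 gave 0.045 with a log2 fold change of -2.08. Without the low 5 d wDah females of experiment 1 the log2 fold change was -0.54 in Ago2 and -0.11 in Ago1.

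**Figure D4:**
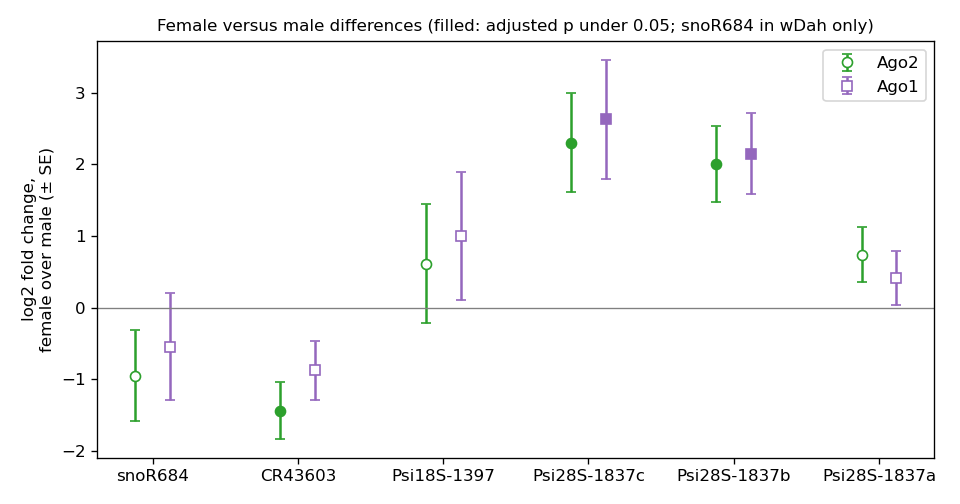
log2 fold change of female over male for the 6 small RNAs, in Ago2 (green circles) and Ago1 (purple squares), with bars of 1 SE and filled points where the adjusted p was under 0.05. snoR684 is from wDah flies only. snoRNA:Psi28S-1837b and snoRNA:Psi28S-1837c lie at 2.0 to 2.62, and sncRNA:CR43603 lies below 0 at -1.44 in Ago2 and -0.88 in Ago1.

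Age moved none of the 6 RNAs past the threshold in either precipitate. Over all rows, 0.732% were called between 35 d and 5 d in Ago2 and 0.248% in Ago1 with edgeR, and 182 and 144 rows had an unadjusted p under 0.05. None of the members was called with DESeq2 either. In simulated age differences in Ago1, 4-fold changes were found in 81.5% of 92 changed rows and 2-fold changes in 17.9% of 95. A 2-fold change would thus mostly have been missed. The simulated counts had no differences between sexes, genotypes or experiments, and these shares are over all rows. The age difference in Ago1 had an SE of 0.89 for snoRNA:Psi18S-1397, 0.79 for snoRNA:Psi28S-1837c and 0.75 for snoR684 in wDah flies. These SE are from the fit without the experiment number as a block, so they include the spread between experiments. In that fit a 4-fold change could also have been missed for these members. With the block, no member was called for age either. sncRNA:CR43603 had the smallest adjusted p, with a log2 fold change of 0.77 ± 0.39 in Ago2 (SE, adjusted p = 0.44) and 0.61 ± 0.41 in Ago1 (adjusted p = 0.64). snoR684 in wDah flies was higher at 35 d in 4 of 4 sibling pairs of each precipitate, with 1.02 ± 0.64 in Ago2 (adjusted p = 0.78) and 0.86 ± 0.75 in Ago1 (adjusted p = 0.83). Without the 5 d wDah females of experiment 1, these were 0.62 in Ago2 and 0.42 in Ago1.

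The age differences of snoRNA:Psi18S-1397, snoRNA:Psi28S-1837a and snoRNA:Psi28S-1837b changed sign with the experiment in both precipitates. That of snoRNA:Psi28S-1837c did so in Ago2 alone. snoRNA:Psi18S-1397 had a log2 difference of 35 d and 5 d of 0.85 in experiment 1 and -0.55 in experiment 2 in Ago2, and of 0.68 and -0.52 in Ago1. In experiment 2 it was lower at 35 d in all 4 pairs of each precipitate. snoRNA:Psi28S-1837b had 0.82 and -0.59 in Ago2, and 0.46 and -0.37 in Ago1. snoRNA:Psi28S-1837a had 0.55 and -0.70 in Ago2, and 0.63 and -0.14 in Ago1. snoRNA:Psi28S-1837c had 0.59 and -0.73 in Ago2, and -0.21 and -0.75 in Ago1. In wDah flies alone snoRNA:Psi18S-1397 did not change sign, at -0.07 and -0.38 in Ago2 and -0.09 and -0.13 in Ago1. A difference of the age effect between the sexes was not shown for any member, with edgeR adjusted p of 0.45 or more in Ago2 and 0.70 or more in Ago1. With total mapped reads as library size and all libraries in the fit, edgeR called no row in that contrast in either table. Snorna-based scaling, with snoRNA reads as library size, called 102 rows in Ago2.

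No difference between the 2 Argonautes was shown for these fragments. None of the 6 members was called between Ago2 and Ago1, while 53.0% of 1297 rows were, 42.1% of all rows being higher in Ago2 and 10.9% lower. With TMM factors the split turned round, with 88 rows higher and 197 lower, against 546 and 142, and no member was called. With Ago2 and Ago1 paired by genotype, sex, age and experiment number, a fit added after the data were seen, 55.9% of rows were called and again no member. The log2 fold changes of Ago2 over Ago1 were between -0.11 and 0.10 for the 5 members tested over both genotypes, with SE of 0.27 to 0.65. For snoRNA:Psi28S-1837b this averaged opposite signs, with a log2 difference of -0.51 in experiment 1 and 0.43 in experiment 2. Its Ago2 library was the higher in 1 of 8 pairs of experiment 1 and in 7 of 8 of experiment 2. For the others the differences within an experiment were between -0.21 and 0.31. snoR684 in wDah flies had 0.36 ± 0.52 (SE, edgeR adjusted p = 0.65; 48.4% of rows called in wDah flies), with the Ago2 library the higher in 7 of 8 pairs. In the paired fit it had 0.37 ± 0.28 (SE, edgeR adjusted p = 0.31; 51.9% of rows called in wDah flies). The tightest of these values was that of snoRNA:Psi28S-1837a, at 0.04 ± 0.27. Among the other snoRNAs 4 of 159 were higher and 1 lower in Ago2, beside a median log2 fold change of 0.59 over all rows. The differences of Ago2 and Ago1 by sex or by age gave no called member, with adjusted p of 0.70 or more, and 0.386% of rows were called for sex and none for age.

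The experiment number separated 1 member completely. snoRNA:Psi18S-1397 had 68.7 to 513 CPM in the 8 Ago2 libraries of experiment 1, against 11.7 to 45.2 CPM in those of experiment 2. In Ago1 it had 68.0 to 619 CPM in experiment 1, against 11.8 to 51.3 CPM in experiment 2. The ratio of the medians was 11.98 in Ago2 and 9.30 in Ago1. Experiment 1 lay wholly above experiment 2 for 0.366% of rows in Ago2 and 0.248% in Ago1, and the experiments did not overlap in either direction for 1.83% and 0.66%. This description was added after the values were seen.

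The other members followed the experiment to different degrees. snoRNA:Psi28S-1837c was higher in experiment 1 in 8 of 8 pairs of each precipitate, with median levels of 33.4 against 10.6 CPM in Ago2 and 45.9 against 5.75 CPM in Ago1. snoR684 ran the other way in wDah flies, lower in experiment 1 in 4 of 4 pairs, at medians of 89.1 against 199 CPM in Ago2 and 70.5 against 135 CPM in Ago1. snoRNA:Psi28S-1837a and sncRNA:CR43603 had ratios of medians between 0.627 and 0.899, with overlapping ranges. snoRNA:Psi28S-1837b had a ratio of medians of 1.16 in Ago2 and 2.49 in Ago1, and was higher in experiment 1 in 5 of 8 pairs in Ago2 and 6 of 8 in Ago1. Within intron 4, snoRNA:Psi28S-1837a had ratios of medians of 0.627 in Ago2 and 0.710 in Ago1, and snoRNA:Psi28S-1837c 3.15 and 7.98. A difference between members in this was not tested.

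The related pair snoRNA:Psi28S-1837b and snoRNA:Psi28S-1837c of intron 4 differed in balance between the experiments. In dFOXO-null flies the ratio of snoRNA:Psi28S-1837c to snoRNA:Psi28S-1837b reads was 1.40 to 18 in the 8 libraries of experiment 1 (median 3.55) and 0.293 to 0.684 in those of experiment 2 (median 0.458). In wDah flies it was 0.667 to 1.85 in experiment 1 (median 1.05) and 0 to 1.08 in experiment 2 (median 0.656). The 2 experiments did not overlap in dFOXO-null flies and did in wDah flies. Several of these ratios rest on few reads, down to 1 read of snoRNA:Psi28S-1837b in the library with the ratio of 18.

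**Figure D5:**
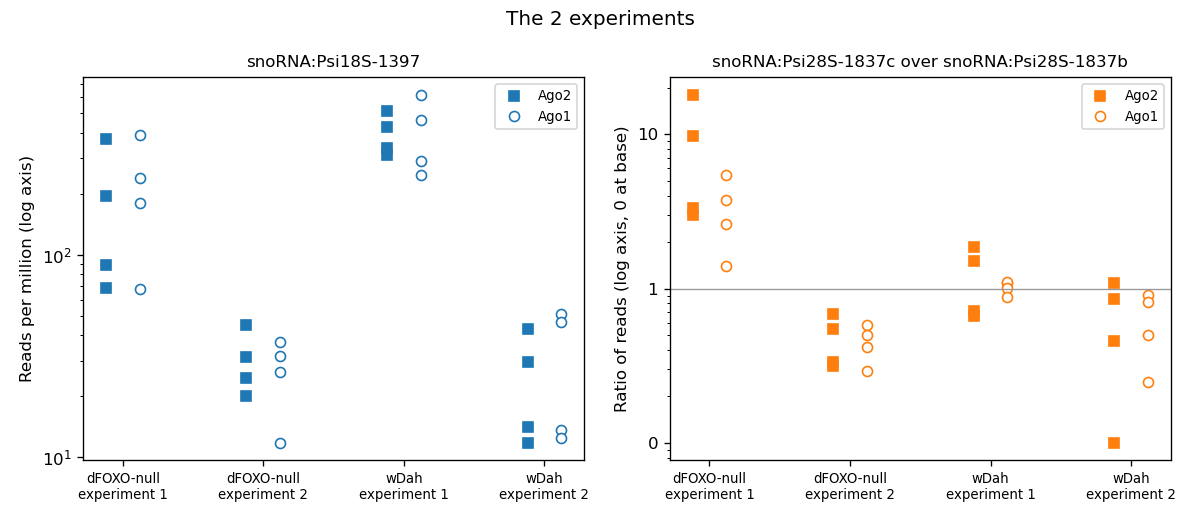
Left, CPM of snoRNA:Psi18S-1397 (log axis) in each library by genotype and experiment. Right, the ratio of snoRNA:Psi28S-1837c to snoRNA:Psi28S-1837b reads (log axis, 0 at the base). Filled squares are Ago2 and open circles Ago1, with 8 libraries to a column. snoRNA:Psi18S-1397 stays above 68.0 CPM in experiment 1 and below 51.3 CPM in experiment 2, and the ratio exceeds 1.40 only in experiment 1.

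Rows with the most similar profiles over the 32 libraries were found by Pearson's r of log2 CPM among 1296 other rows, as a description. snoRNA:Psi18S-1397 was most like snoRNA:Psi18S-1347a (r = 0.93), snoRNA:Tudor-SN-a (0.89) and snoRNA:Psi28S-2622 (0.87). snoRNA:Psi28S-1837c was most like snoRNA:Psi28S-2179 (0.88), snoRNA:Psi18S-841a (0.88) and snoRNA:Psi28S-3342 (0.86). snoRNA:Psi28S-1837b was most like snoRNA:Psi18S-1820 (0.85), snoRNA:Psi28S-1192c (0.84) and snoRNA:Psi18S-1377c (0.84). Within the 16 wDah libraries alone, snoRNA:Psi28S-1837c and snoRNA:Psi28S-1837b had r = 0.96 with each other, and within the 16 dFOXO-null libraries r = 0.42.

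snoRNA:Psi28S-1837a had weaker likeness, to snoRNA:Psi28S-1175a (0.72), snoRNA:Me28S-G2703c (0.68) and snoRNA:Psi18S-1377d (0.67). sncRNA:CR43603 was most like scaRNA:MeU2-G25 (0.82), a small Cajal body RNA, followed by the proline tRNA genes tRNA:Pro-CGG-2-1 and tRNA:Pro-CGG-2-2 (0.65 each). snoR684, with its zeros in dFOXO-null flies, was most like Mal-A1 (0.79), a maltase gene, and the U1 spliceosomal RNA genes snRNA:U1:21D and snRNA:U1:95Ca (0.68 each). These libraries share genotypes, sexes and experiments, so the values of r rest in part on those shared groups.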

How the data were processed

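Small RNA was sequenced from Ago2 and Ago1 precipitates of whole flies, 2 replicates in each of 16 groups. The authors trimmed adapters with Trim Galore, discarded reads over 25 nt, aligned with Bowtie to dm6 allowing 1 mismatch, and counted reads per transcript with featureCounts. Per the study's methods all valid alignments were reported, so a read can count at several places. The deposited counts are whole reads without normalization. The deposited percent values are counts divided by the library total, and values recomputed from the counts were within 0.455% of them. Tables mapped to miRNAs and transposons were not used. The strand setting was not given in the sources used here.

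The 6 members and all lists were chosen with earlier results of these data known. The named genes are the 6 members, the 3 most similar rows of each and the neighbours of the host; snoRNA:229 and snoRNA:MeU6-C68, from wDah libraries alone, were added after their values were seen. The quasi-likelihood test of edgeR 4.0.16 (R 4.3.3) was run on the counts, with 1 mean per group, total mapped reads as library size, a filter of 5 reads on average and Benjamini-Hochberg adjustment over all rows of the fit at 0.05. Each SE is the absolute log2 fold change divided by the square root of the F statistic of that test. snoR684 was read from the wDah contrast. Where nothing is said, a value averages over genotype, sex and age. Differences within an experiment are of mean log2 CPM with a prior count of 2, and are not fitted. Whether replicates came from separate parents was not stated beyond the siblings, so p-values measure the spread between these samples.

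The alternatives were TMM factors, median-of-ratios factors, snoRNA reads as library size, DESeq2 1.42.0, no low-count filter, the replicate number within genotype as a block, leaving out each library and, chosen after the data were seen, Ago2 and Ago1 paired by genotype, sex, age and number. Per the labels, same-numbered flies of 35 d and 5 d were siblings, which pairs the samples. Deviations of same-numbered siblings from their group means correlated at -0.0078 to 0.417 in Ago2 and 0.236 to 0.618 in Ago1. The age test in Ago1 was tried on simulated data without differences of sex, genotype or experiment, where 5.15% of calls were false. Windows were matched with bwa 0.7.19-r1273, and intervals came from SciPy 1.17.1 in Python 3.11.15. Sequences were read from the RefSeq copy of the Release 6 (dm6) genome, at coordinates of the Ensembl annotation. Mapped reads were 497380 to 3894561 in Ago2 and 705569 to 2323765 in Ago1.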

Additional observations from a re-analysis of the deposited data

How the results depend on the processing

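The called differences between the sexes kept their direction under every alternative run. The exception in call was snoRNA:Psi28S-1837c in Ago1, lost without any of 6 libraries. The number of members called between the sexes was 3 in Ago2, 5 with the replicate block and 3 to 4 without 1 library. In Ago1 it was 2, with 4 under the replicate block and 1 to 3 without 1 library. Over all rows, the block called 353 higher and 574 lower of 1366 in Ago2. In Ago1 the block called 306 rows higher and 326 lower of 1212. TMM factors, median-of-ratios factors and DESeq2 also called snoRNA:Psi28S-1837a in Ago2. No member was called for age, for Ago2 against Ago1 or for an interaction under any alternative run. The log2 difference of sncRNA:CR43603 between dFOXO-null and wDah flies was 1.83 to 2.83 in Ago2 and 1.69 to 2.77 in Ago1 over the alternatives that kept all libraries, the replicate block included. Without 1 library it was 1.86 to 2.66 in Ago2 and 2.15 to 2.88 in Ago1.

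Counts over all rows moved more. Between Ago2 and Ago1, 688 rows were called, against 285 with TMM factors, 268 with median-of-ratios factors and 455 with snoRNA reads as library size. For sex, 866 rows in Ago2 became 548 with snoRNA reads as library size, and 483 in Ago1 became 832 without the low-count filter, which tests more rows. For age in Ago2, 10 rows became 41 with TMM factors, 45 with median-of-ratios factors, 134 with snoRNA reads, 42 with DESeq2 and 58 with the block. For age in Ago1, 3 became 1 with median-of-ratios factors or no filter, 9 with snoRNA reads, 29 with DESeq2 and 11 with the block. For age by sex in Ago2, snoRNA reads as library size called 102 rows, against 0. For Ago by sex, 5 rows became 2, 3, 9 and 8 with median-of-ratios factors, snoRNA reads, DESeq2 and the block, and 18 with Ago2 and Ago1 paired. For genotype by sex in Ago2, DESeq2 called 1. Without 1 library, 599 to 705 rows were called between Ago2 and Ago1, 697 to 882 in Ago2 and 390 to 581 in Ago1 for sex, 0 to 48 and 0 to 9 for age, 0 to 9 and 0 to 40 for age by sex, 0 to 5 and 0 to 41 for genotype by sex, and 0 to 19 for Ago by sex. The median of all rows for sex in Ago2 was -0.49 as reported and -0.07 with TMM factors.

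Depth limits the weakest members, since snoRNA:Psi28S-1837b and snoRNA:Psi28S-1837c had 5 reads or fewer in several male libraries.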
